A study of Bos taurus with 9 samples.

Results

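The 36 genes described here are the 13 protein genes of the bovine mitochondrial genome and 23 nuclear genes whose products copy, transcribe, stabilise or translate that genome, or regulate those that do. They were chosen by symbol and role, and all 36 were found among the 22127 genes of the deposited table. All 36 also passed the filter on low counts that left 16469 genes for testing.

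The mitochondrial genome is a small circle, and both of its strands are transcribed into long precursors that are cut into separate messenger RNAs, mostly at the tRNAs between them. Its protein genes all encode subunits of the respiratory chain or of ATP synthase, while every protein that transcribes, protects or translates them is encoded in the nucleus and imported. In early embryos the mitochondria descend from the oocyte, and replication of their genome is known to resume around the blastocyst stage in cattle. The roles given for the nuclear genes are known mainly from human and mouse cells.

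Each of the 9 libraries held RNA from a pool of 9 to 11 blastocysts at day 8, with 3 libraries per oocyte maturation medium. Cumulus-oocyte complexes were matured in control medium with 5.5 mM glucose, in low glucose medium with 2.75 mM, or in low glucose medium with 2.75 mM glucose and 1.8 mM BHB, an abbreviation the labels do not spell out. All media shared the same base medium with serum, pyruvate, gentamicin, FSH and estradiol, and fertilisation and embryo culture in SOF media were shared. The comparisons ask whether the medium of the oocyte is reflected in these transcripts of the embryo; whether the replicates came from separate cultures is not stated, so each p-value covers the spread among these libraries alone, which may be technical.

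Library totals ran from 55611205 to 75178898 estimated counts, and replicates correlated at 0.951 to 0.976 in log2 CPM, the count scaled to library size. The labelled tissue was checked by lineage genes: POU5F1, a pluripotency factor, lay at 888 to 1101 CPM, CDX2, a trophectoderm factor, at 88.6 to 187 CPM and GATA6, a hypoblast factor, at 467 to 758 CPM. Of 6 hypoblast markers, 1 passed in edgeR, GATA4, a transcription factor named after its values were seen, which was lower than control in low glucose (log2 fold change -1.45, adjusted p = 0.00802) and with BHB (-1.13, adjusted p = 0.0432). The summed level of the 6 ran from 713 to 926 CPM in control, 796 to 1031 CPM in low glucose and 887 to 1001 CPM with BHB. Against control, 7 of 23 cumulus and granulosa markers were lower in low glucose and 7 with BHB at an edgeR adjusted p under 0.05, in comparisons that share the controls. Of all 16469 genes tested, 333 were lower in low glucose and 227 with BHB at that threshold. The summed level of the cumulus and granulosa markers ran from 919 to 1050 CPM in control, 554 to 1305 CPM in low glucose and 631 to 1194 CPM with BHB. INHA, an inhibin subunit named after its values were seen, was the marker without counts in all low glucose libraries. LUM, a matrix proteoglycan gene, lay at 204, 125 and 88.1 CPM in control, at 23.8, 13.8 and 5.34 CPM in low glucose and at 12.4, 12.4 and 12.1 CPM with BHB. CD44, a hyaluronan receptor gene, ran from 5.49 to 12.4 CPM in control, 1.71 to 2.63 CPM in low glucose and 1.75 to 1.92 CPM with BHB. CYP19A1, the aromatase of granulosa cells, lay at 17.1 to 28.7 CPM and FSHR, their FSH receptor, at 3.32 to 5.67 CPM over all libraries. The part of these genes' cells in the values below was not tested.

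The mitochondrial transcripts spanned a wider range among the libraries of low glucose, and among those with BHB, than the means of the media did. Their summed counts made up 4.93%, 5.36% and 4.75% of the control libraries, 7.93%, 5.61% and 4.41% of the low glucose libraries, and 3.36%, 2.25% and 6.19% of the libraries with BHB. The highest low glucose library and the lowest library with BHB lay outside the control range, but each of these media also had a library on the other side of it. In CPM, the sum of the 13 genes differed 3.67-fold between the highest and the lowest library. In such pools, fewer cells of a type and less RNA per cell cannot be told apart. The libraries were made by poly(A) selection, so the values cover the RNA that it captured.

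COX1, the catalytic subunit of cytochrome c oxidase and the source of the most mitochondrial reads, lay at 16112, 19730 and 19221 CPM in control. It lay at 30539, 23249 and 16927 CPM in low glucose, and at 11577, 8738 and 26024 CPM with BHB. Low glucose ran from within the control range to above it, BHB had libraries both below and above it, and all 3 media overlapped. COX2, which carries the copper site that receives electrons from cytochrome c, lay at 3812, 3538 and 3643 CPM in control, at 5914, 4249 and 3278 CPM in low glucose and at 2787, 2160 and 4278 CPM with BHB. COX3, the remaining mitochondrial subunit of that complex, lay at 6088, 7378 and 6559 CPM, at 10927, 7393 and 6467 CPM, and at 4489, 3349 and 8666 CPM in the same order. All 3 genes were highest in low glucose replicate 1 and lowest in replicate 2 with BHB, and their groups overlapped.

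Complex I, which takes electrons from NADH, has 7 subunits in this genome. ND2, part of its proton-pumping membrane arm, lay at 2989, 2637 and 2110 CPM in control, at 5110, 2726 and 1895 CPM in low glucose and 1763, 1100 and 2711 CPM with BHB. ND4, another antiporter-like subunit of that arm, lay at 3112, 3760 and 2946 CPM, at 6077, 3722 and 2853 CPM, and at 2085, 1278 and 4340 CPM in the same order. ND5, the antiporter-like subunit at the end of the arm, lay at 1798, 2385 and 2202 CPM, at 3791, 2907 and 1977 CPM, and at 1363, 1043 and 2879 CPM. In each of these genes the same library with BHB, replicate 2, was lowest and low glucose replicate 1 was highest. ND1, near the quinone site, had means of 2723 ± 392 CPM in control, 3369 ± 1327 CPM in low glucose and 2018 ± 888 CPM with BHB (SD, n = 3 each). ND3 and ND4L, small membrane subunits, ran from 640 to 1862 CPM and from 126 to 478 CPM over the 9 libraries.

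ND6 is the protein gene encoded on the light strand, opposite to all others. It lay at 788, 948 and 867 CPM in control, at 1535, 1072 and 786 CPM in low glucose and 553, 390 and 1109 CPM with BHB. Its order of libraries was that of the heavy-strand genes at both ends, with low glucose replicate 1 highest and replicate 2 with BHB lowest. The labels do not say whether counting used strand, so light-strand reads and antisense reads of that stretch cannot be told apart.

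CYTB, the mitochondrial subunit of complex III, lay at 2962, 3233 and 2402 CPM in control, at 5770, 3632 and 2505 CPM in low glucose and 2281, 1238 and 3203 CPM with BHB. ATP6, a proton channel subunit of ATP synthase, lay at 3549, 3821 and 2991 CPM, at 5964, 3467 and 3019 CPM, and at 2339, 1361 and 3868 CPM in the same order. The 3 media overlapped in both genes. ATP8 overlaps ATP6 in the genome, and the estimated counts of this pair were never whole, whereas those of the other 11 mitochondrial genes were whole throughout at a tolerance of 0.001. Reads of the overlap are therefore divided by estimation, and the ratio of ATP6 to ATP8 is uncertain.

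**Figure D1:**
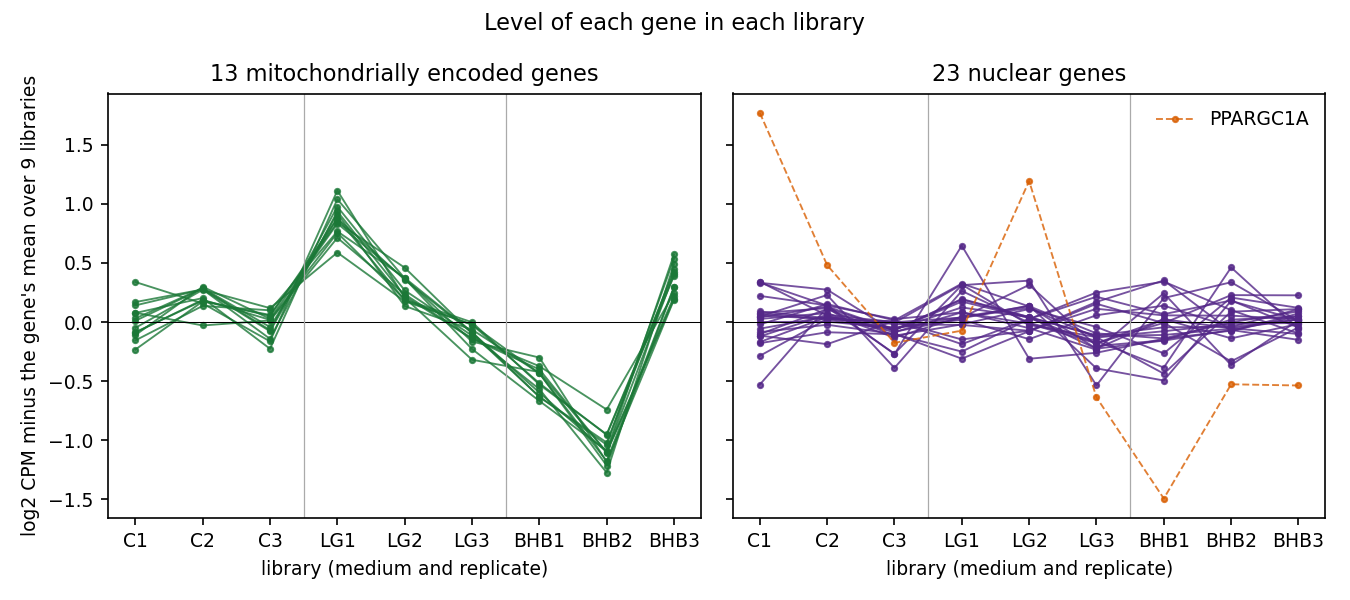
Log2 CPM of each of the 36 genes minus that gene's mean over all libraries, on the y axis, in each of the 9 libraries on the x axis, for the 13 mitochondrially encoded and the 23 nuclear genes. The mitochondrial genes move together, high in low glucose replicate 1 and low in replicate 2 with BHB. PPARGC1A, which held 8 to 75 counts per library, varies most among the nuclear genes. The others differ 1.18-fold to 1.94-fold between their highest and lowest library.

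In edgeR's quasi-likelihood test, 0 of the 36 genes passed an adjusted p of 0.05 for low glucose against control, where 2.03% of all genes tested did. All 13 mitochondrial estimates were above 0, with a median log2 fold change of 0.31 and a range of 0.15 to 0.47, beside a median of 0.02 over all genes tested. The estimate for CYTB, the highest, was 0.47 (SE 0.321, 95% interval -0.23 to 1.17, edgeR adjusted p = 0.967), and that for COX1 was 0.36 (SE 0.326, interval -0.35 to 1.07, edgeR adjusted p = 0.997). At an unadjusted p under 0.05, 0 of the 13 were left in edgeR, DESeq2 or limma-voom, against 7.33% of all genes in edgeR. These estimates rest on low glucose replicate 1: without it the median was 0.04 and those of ND1, ND2, ND3 and ATP6 were below 0. In all 13 genes the groups overlapped, whereas 13.2% of all genes tested had groups that did not.

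For BHB against control, 0 of the 36 passed in edgeR, beside 1.38% of all genes tested. All 13 mitochondrial estimates were below 0, with a median of -0.35 and a range of -0.47 to -0.25, beside 0.01 over all genes. That of ND2, the lowest, was -0.47 (SE 0.345, interval -1.23 to 0.28, edgeR adjusted p = 0.908), and that of COX1 was -0.25 (SE 0.325, interval -0.96 to 0.46, edgeR adjusted p = 0.959). At an unadjusted p under 0.05, 0 of the 13 stood out in any of the 3 tools, against 7.32% of all genes in edgeR. The size rested on single libraries: without replicate 3 with BHB, the highest of its medium, the median was -0.85 and the smallest edgeR adjusted p was 0.106. Without replicate 2 with BHB, the lowest, the median was -0.06 and the COX1 estimate was 0.03.

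For BHB against low glucose, 0 of the 36 passed, and 0% of all genes tested did in edgeR. The 13 mitochondrial estimates were all below 0, with a median of -0.71 and a range of -0.82 to -0.52, beside 0.01 over all genes. An unadjusted p under 0.05 was reached in edgeR by 8 of them, namely ND1, ND2, ND5, ND6, CYTB, COX2, ATP6 and ATP8, all lower with BHB, where 1.64% of all genes tested reached that level and 0.589% were lower. The number depended on the tool: it was 2 in DESeq2, 12 in limma-voom and 9 with the replicate number as a block. The shares of all genes given above are those of the main edgeR fit, so these other counts have no share beside them. In each of these fits 0 passed the adjusted threshold. The CYTB estimate was -0.82 (SE 0.322, interval -1.53 to -0.12, edgeR adjusted p = 1.00). The 13 genes come from the same precursors and the same 6 libraries, so their shared sign is not 13 separate observations. Without low glucose replicate 1 the median was -0.37, and without replicate 3 with BHB it was -1.17.

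**Figure D2:**
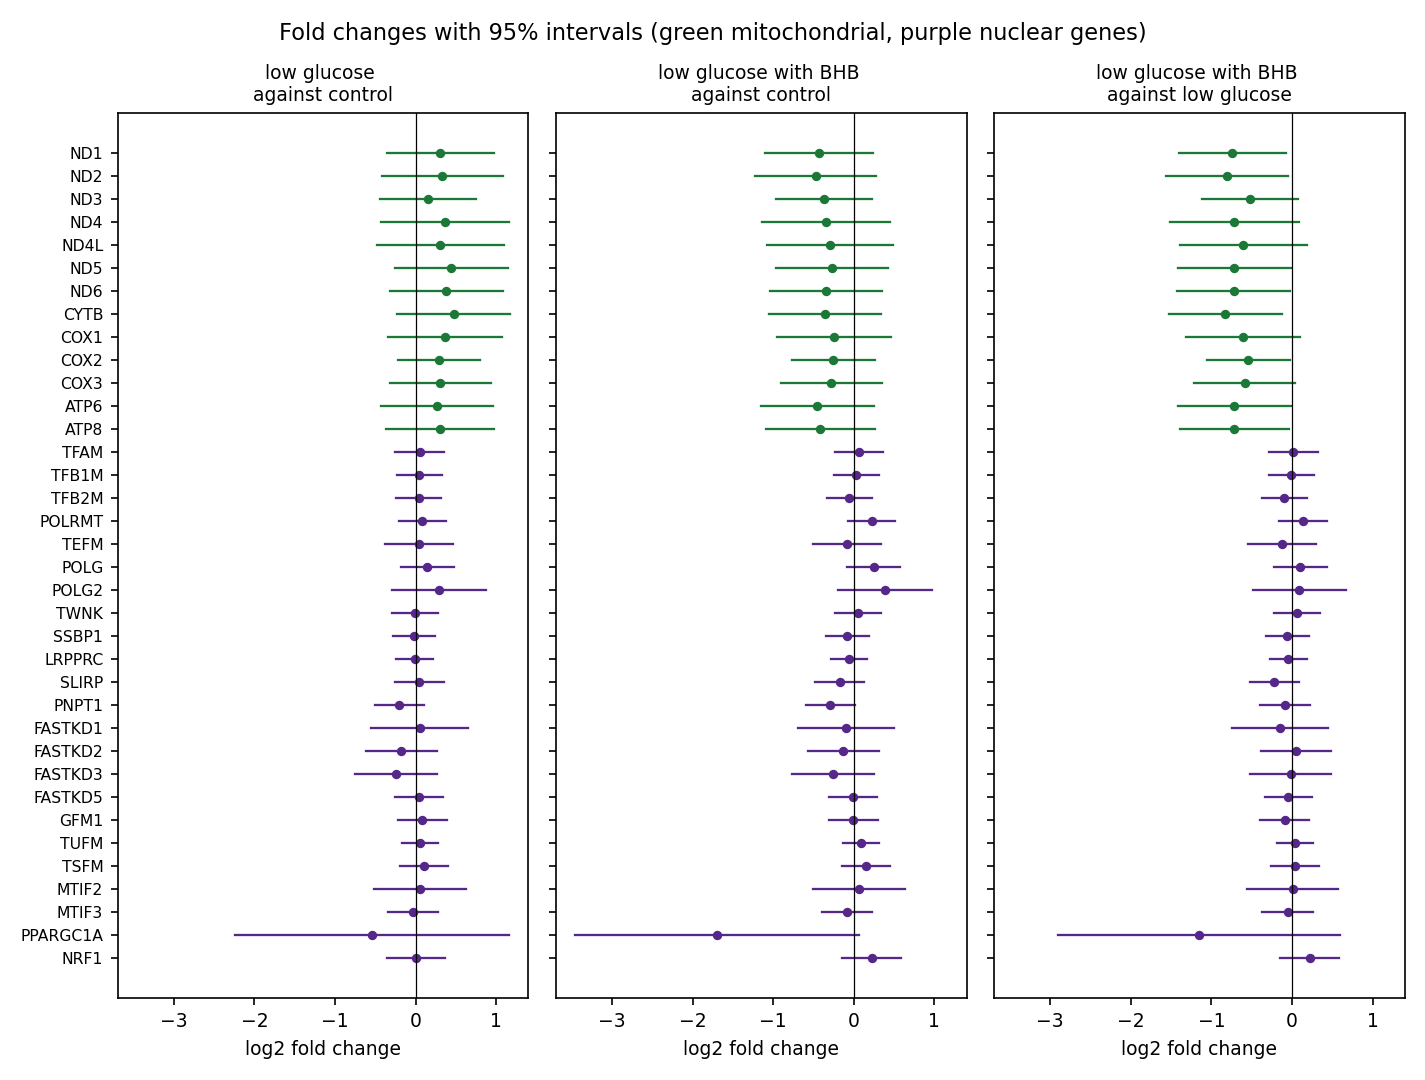
Log2 fold change from edgeR with its 95% interval, on the x axis, for each of the 36 genes on the y axis, in 3 comparisons. The 13 mitochondrial estimates lie above 0 for low glucose against control and below 0 in both comparisons of BHB, with wide intervals, and most nuclear estimates lie near 0.

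Spread within media, over the 3 media together, separated the mitochondrial genes from the nuclear genes other than PPARGC1A, as a description of these libraries. The SD of log2 CPM within a medium ran from 0.380 in COX2 to 0.613 over the 13 mitochondrial genes, with a median of 0.531. Over the nuclear genes without PPARGC1A it ran from 0.0835 to 0.357, with a median of 0.168, against 0.197 over the 10033 genes with a mean of at least 5 CPM. PPARGC1A, which held 8 to 75 counts per library, had an SD of 0.792, above all 13 mitochondrial genes. The mitochondrial gene with the fewest reads, ND4L, lay at 126 CPM or more in every library. Of 602 other genes as abundant as ND4L or more, 18 had an SD at least as high as that of COX2, the steadiest of the 13. The ratio of the highest to the lowest library was 2.74 for COX2 to 4.76 for ND4, with a median of 3.93, against 1.18 to 1.94 for 22 of the nuclear genes. In each of the 13 mitochondrial genes the SD in CPM was lowest in control. The genes move together over the same 3 libraries per medium, so these are not 13 separate observations. Whether the media differ in spread was not tested. For COX1 it was 1959 CPM in control, 6812 CPM in low glucose and 9270 CPM with BHB, and for COX2 138.5, 1333 and 1088 CPM. The wide spread thus came mostly from the low glucose and BHB libraries.

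**Figure D3:**
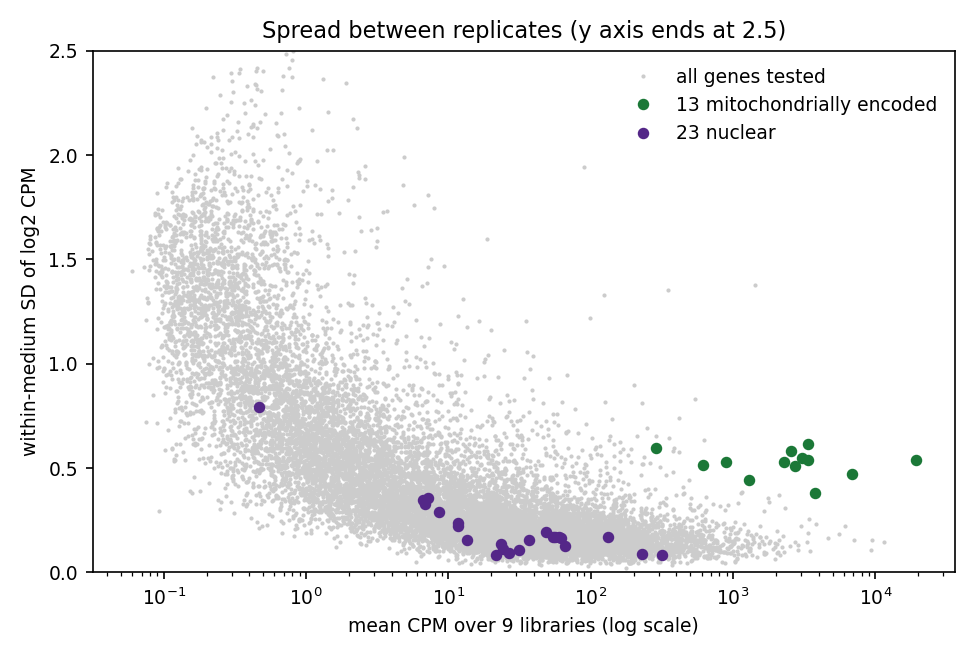
SD of log2 CPM within media (all 3 together), on the y axis, against mean CPM on a log x axis for all genes tested. The 13 mitochondrial and 23 nuclear genes are marked. The y axis ends at 2.5, which leaves out 17 genes, and the mitochondrial genes lie at 0.380 to 0.613, above a median of 0.150 for genes at least as abundant as ND4L.

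Within the mitochondrial pool the proportions varied far less than the level. Shares are given per read, so they say nothing about the number of molecules, since longer messages collect more reads. COX1 held 35.0% to 41.5% of the pool, COX3 12.8% to 14.7% and COX2 6.67% to 9.45%, and the 7 genes of complex I together held 25.2% to 28.3%. The ratio of the highest to the lowest share was 1.09 for ND6 to 1.51 for ND2, whereas CPM levels differed 2.74-fold to 4.76-fold. In 1 of the 39 comparisons of a gene's share between media the groups did not overlap, namely ND6, which held 1.83%, 1.86% and 1.78% of the pool in low glucose and 1.70%, 1.71% and 1.77% with BHB. That comparison was singled out after the values were seen and had no test.

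Some of these proportions went with replicate number. The ratio of COX1 to ND2 reads was 5.39, 5.98 and 6.57 in replicate 1 of control, low glucose and BHB. It was 7.48, 8.53 and 7.95 in replicate 2 of the same media, and 9.11, 8.93 and 9.60 in replicate 3. The 3 replicate numbers did not overlap, while the 3 media did. The ratio of COX1 to ND5, by contrast, was 8.00 to 9.04 over all libraries. Among the 78 ratios of a pair of mitochondrial genes, replicate 1 lay apart from all other libraries in 20, replicate 3 in 8 and replicate 2 in 0, while control lay apart in 1, low glucose in 0 and BHB in 0. Most ratios were thus apart by neither, among them that of ND4 to COX2, which differed most between libraries, by 1.80-fold. The labels give no meaning to the replicate number, the pattern was noticed after the values were seen, and its cause was not tested.

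**Figure D4:**
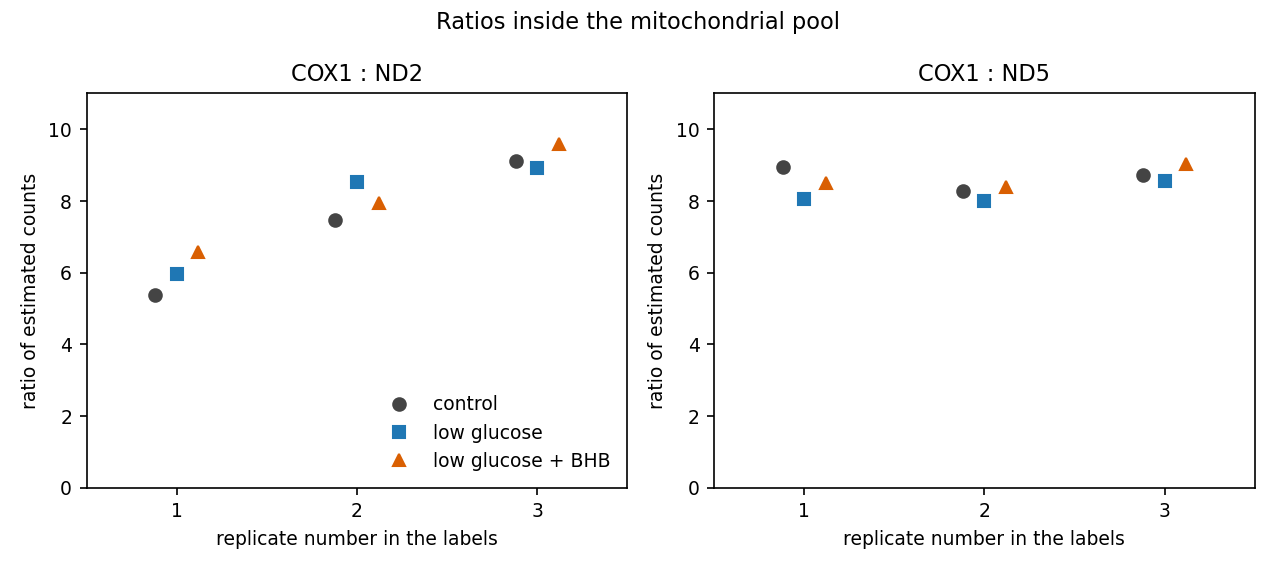
Ratio of reads of COX1 to ND2 and of COX1 to ND5, on the y axes, by replicate number on the x axis, with a point per library coloured by medium. The COX1 to ND2 ratio is 5.39 to 6.57 in replicate 1, 7.48 to 8.53 in replicate 2 and 8.93 to 9.60 in replicate 3, whereas the COX1 to ND5 ratio stays between 8.00 and 9.04.

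The nuclear genes of mitochondrial transcription differed between their highest and lowest library by 1.18-fold in TFB1M to 1.69-fold in TEFM. TFAM, which packages the mitochondrial genome and starts its transcription, lay at 52.4, 60.7 and 51.9 CPM in control, at 55.5, 60.7 and 54.7 CPM in low glucose and 46.8, 64.9 and 61.1 CPM with BHB. POLRMT, the mitochondrial RNA polymerase, lay at 120, 115 and 131 CPM, at 118, 124 and 147 CPM, and at 166, 124 and 137 CPM in the same order. The groups overlapped in both genes, and the POLRMT estimate for BHB against control was 0.22 (SE 0.135, interval -0.07 to 0.52, edgeR adjusted p = 0.871). TFB2M, which melts the promoter with the polymerase, had means of 31.5 ± 1.53, 32.3 ± 3.49 and 30.3 ± 1.39 CPM in control, low glucose and BHB (SD, n = 3 each). TFB1M, a methyltransferase of the small ribosomal RNA, and TEFM, the elongation factor, had estimates between -0.13 and 0.04 in the 3 comparisons.

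Among the genes of replication, POLG, the catalytic subunit of the mitochondrial DNA polymerase, lay at 42.6, 45.4 and 44.8 CPM in control, at 40.5, 49.0 and 57.3 CPM in low glucose and 61.1, 51.7 and 45.0 CPM with BHB. Control again spanned the narrowest range and was overlapped by both other media. TWNK, the replicative helicase, had means of 21.5 ± 0.442, 21.4 ± 1.56 and 22.3 ± 1.44 CPM in control, low glucose and BHB (SD, n = 3 each), with an interval of -0.23 to 0.34 for BHB against control. The intervals of POLG2, the accessory subunit of the polymerase, were wider, with 0.39 (SE 0.268, interval -0.20 to 0.97, edgeR adjusted p = 0.906) in that comparison. SSBP1, which coats single-stranded mitochondrial DNA, ran from 58.1 to 74.2 CPM over all libraries.

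Of the 7 genes of RNA stability and processing, 2 had groups that did not overlap for BHB against control, both lower, where 8.56% of all genes tested were lower without overlap and 13.3% did not overlap in either direction. PNPT1, a polynucleotide phosphorylase of mitochondrial RNA decay and import, lay at 45.9, 40.1 and 37.0 CPM in control, at 38.5, 36.1 and 32.1 CPM in low glucose and 36.3, 28.9 and 35.3 CPM with BHB. All libraries with BHB lay below all controls, and low glucose overlapped both. The estimate was -0.29 (SE 0.141, interval -0.60 to 0.01, edgeR adjusted p = 0.722). SLIRP, an RNA-binding partner of LRPPRC, lay at 58.8, 66.3 and 60.2 CPM in control, at 74.7, 65.3 and 51.0 CPM in low glucose and 53.5, 56.9 and 53.7 CPM with BHB. Again all BHB libraries were below the controls, with an estimate of -0.18 (SE 0.139, edgeR adjusted p = 0.922), while low glucose reached both the highest and the lowest value. LRPPRC, which holds mitochondrial messages in a stable pool, was steady at 232 ± 11.0, 229 ± 20.0 and 222 ± 5.89 CPM (SD, n = 3 each).

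The FASTK family members process or stabilise particular mitochondrial RNAs. FASTKD5, which acts on messages without a flanking tRNA, averaged 24.0 ± 1.77 CPM for control, 24.6 ± 1.96 CPM for low glucose and 23.9 ± 1.89 CPM for BHB (SD, n = 3 each). FASTKD1, FASTKD2 and FASTKD3 were lower in level, at 5.21 to 14.6 CPM over all libraries, and their estimates ran from -0.26 to 0.05 in the 3 comparisons.

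The translation factors were likewise near 0. TUFM, the elongation factor that delivers aminoacyl-tRNA, lay at 283, 327 and 314 CPM in control, at 313, 302 and 344 CPM in low glucose and 331, 330 and 323 CPM with BHB. Its interval for BHB against control, -0.13 to 0.31, was among the narrowest of the set, and the groups overlapped. TSFM, its exchange factor, had an estimate of 0.15 (SE 0.137, edgeR adjusted p = 0.938) in that comparison. GFM1, the translocation factor, ran from 46.8 to 66.9 CPM, and the initiation factors MTIF2 and MTIF3 from 5.17 to 9.32 CPM and from 19.8 to 26.5 CPM.

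The regulators were PPARGC1A, a coactivator of mitochondrial biogenesis, and NRF1, a transcription factor that binds promoters of many genes of the respiratory chain. PPARGC1A was barely detected, with 75, 37 and 22 counts in control, 23, 60 and 14 in low glucose and 8, 19 and 14 with BHB. The BHB libraries lay below all controls, and low glucose overlapped both. The estimate was -1.70 (SE 0.810, interval -3.46 to 0.06, edgeR adjusted p = 0.719), with -0.97 without control replicate 1 and -2.02 without control replicate 3. For low glucose against control it was -0.55 and turned to 0.18 without control replicate 1. NRF1 lay at 12.7, 13.3 and 12.6 CPM in control, at 10.9, 12.8 and 15.0 CPM in low glucose and 13.4, 15.8 and 15.8 CPM with BHB. Its BHB libraries were above the controls without overlap, with an estimate of 0.22 (SE 0.166, interval -0.14 to 0.58, edgeR adjusted p = 0.911).

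In all, 4 of the 36 genes had groups without overlap for BHB against control, beside 13.3% of all genes tested. NRF1 was the higher one, where 4.77% of all genes were higher without overlap, and PNPT1, SLIRP and PPARGC1A were lower, where 8.56% were. For low glucose against control and for BHB against low glucose, 0 did, beside 13.2% and 5.51% of all genes. At an unadjusted p under 0.05, 0 of the 23 nuclear genes stood out in edgeR or limma-voom in any of the 3 comparisons, and 1 did for BHB against control in DESeq2 and 1 with the replicate number as a block. Their medians were 0.04 for low glucose and -0.01 for BHB, each against control, and -0.02 for BHB against low glucose, beside 0.31, -0.35 and -0.71 for the mitochondrial genes.

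**Figure D5:**
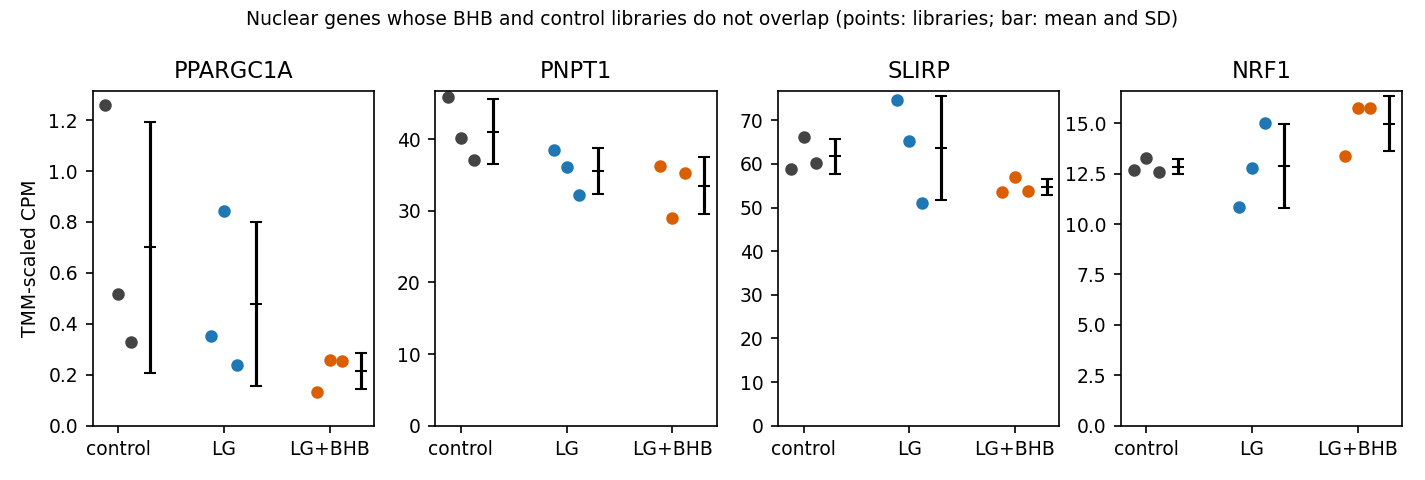
CPM in each library, on the y axes, by medium on the x axis, for the 4 nuclear genes whose groups did not overlap between BHB and control. The lowest BHB value of NRF1, 13.4 CPM, lies just above the highest control value, 13.3 CPM, and the BHB values of SLIRP, PNPT1 and PPARGC1A lie below those of control.

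Other genes of the same machinery, listed by role, gave no passing member in edgeR. These lists held 28 tested genes of mitochondrial RNA processing, 17 of translation, 17 mitochondrial tRNA synthetases, 21 of mitochondrial DNA maintenance and 14 of biogenesis. At an unadjusted p under 0.05 in edgeR, these lists held WARS2 and MRRF for low glucose and VARS2, MRRF and LONP1 for BHB, each against control, and 0 genes between the low glucose media, a smaller share than the 7.33%, 7.32% and 1.64% of all genes tested. The values of these genes are therefore given as a description. The tRNA synthetases charge the tRNAs on which mitochondrial translation depends, and 16 of the 17 had an estimate above 0 both for low glucose and for BHB against control, comparisons that share the controls, with medians of 0.10 and 0.12. In the other lists, 23 and 21 of 28 were above 0 for RNA processing, and 12 of 17 in both comparisons for translation. For DNA maintenance it was 14 of 21 and for biogenesis 10 of 14, each in both comparisons. The genes of a list share the same libraries, so these counts are not separate observations. Over all genes tested, 8765 and 8488 of 16469 estimates were above 0. WARS2, the tryptophan enzyme, had 17.7 ± 1.1 CPM in low glucose against 13.4 ± 1.1 CPM in control (SD, n = 3 each; estimate 0.40, SE 0.153, edgeR adjusted p = 0.427). VARS2, the valine enzyme, had 39.8 ± 3.64 CPM with BHB against 32.0 ± 3.64 CPM in control (estimate 0.32, SE 0.142, edgeR adjusted p = 0.664). MRRF, the ribosome recycling factor, had estimates of 0.39 for low glucose and 0.38 for BHB against control, with edgeR adjusted p-values of 0.474 and 0.549. LONP1, a protease that binds mitochondrial DNA, had an estimate of 0.39 (SE 0.155, edgeR adjusted p = 0.533) for BHB against control.

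A list of 21 nuclear genes of mitochondrial mass, such as carriers and import subunits, was set beside the mitochondrial pool. Its summed level ran from 7505 to 8471 CPM in control, 7717 to 8203 CPM in low glucose and 7237 to 8394 CPM with BHB, and 0 of its genes passed in any comparison in edgeR, with 0 at an unadjusted p under 0.05. Its median was 0.04 for low glucose and -0.01 for BHB, each against control, and -0.05 between the low glucose media.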

How the data were processed

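Per the labels' protocols, NEBNext kits served for poly(A) selection and, as Ultra II, for library preparation. The authors deposited estimated counts per gene, and fastp, kallisto, DESeq2 and the build bosTau9 are named in the submitters' processing notes; their versions, and whether counting used strand, are not given in the sources used. In the table, 18.9% of values were not whole at a tolerance of 0.001. Kallisto divides reads shared by overlapping or near-identical genes.

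Counts were rounded and fitted in edgeR 4.0.16 (R 4.3.3) by the quasi-likelihood test on all 9 libraries with 3 group means, TMM factors and filterByExpr (minimum count 10, minimum total 15; 16469 of 22127 genes left), two-sided, with Benjamini-Hochberg adjustment over all genes tested at 0.05. The common biological coefficient of variation was 0.322. CPM values are TMM-scaled, standard errors follow from the fold change and its F statistic, and intervals are at 95%. The steps were tested on simulated data. Every pair of replicates differed beyond sampling noise (smallest chi-square per degree of freedom 38.1).

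Alternatives were RLE factors, library sizes without the mitochondrial genes, no filter, a mean count of at least 50, DESeq2 1.42.0, limma-voom 3.58.1, the 6 libraries compared alone, the replicate block and leaving out each library. As a check of pairing, deviations from group means were correlated between libraries of the same replicate number. The correlations were weak, at 0.115, 0.243 and 0.102 between BHB and low glucose, where the numbers were taken as pairs from these data alone. Against control they were 0.131, 0.0491 and 0.0417 for low glucose and 0.144, 0.0626 and 0.0458 for BHB. There replicate 1 lay within the range of the paired media and replicates 2 and 3 below it, so the numbers were not taken as pairs. The labels do not state a pairing. The main fit held no replicate term, so its intervals and p-values for BHB against low glucose leave the pairing out. The replicate block is the alternative that includes the numbers.

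All 36 members are named whatever their values; from other lists of the pathway, passing genes and the gene of smallest p in a comparison could be named, and from marker lists POU5F1, CDX2, GATA6, CYP19A1, FSHR, LUM and CD44. The members and lists were chosen with earlier results of these data known. Levels per gene length, promoters and sequences were not used here.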

Additional observations from a re-analysis of the deposited data

How the results depend on the processing

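The count of members passing edgeR's adjusted p of 0.05 was 0 in every comparison and in all 17 alternatives. Median log2 fold changes of the 13 mitochondrial genes were 0.26 to 0.31 for low glucose against control, -0.48 to -0.34 for BHB against control and -0.79 to -0.71 for BHB against low glucose under the alternatives that kept all libraries. With the replicate number as a block they were 0.30, -0.41 and -0.74, and the block changed no call. Leaving out a library moved them from 0.04 to 0.54, from -0.85 to -0.062 for BHB against control and from -1.17 to -0.37, the value of -0.85 being without replicate 3 with BHB. The medians of the 23 nuclear genes lay between -0.01 and 0.07, -0.07 and 0.05, and -0.11 and 0.02 without a library. Of 1833 values of single members, 87 changed sign, all without passing the test, and the cause was not tested. A mean count of at least 50 removed PPARGC1A.

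With 3 libraries per medium, the median spread of the mitochondrial genes within media was 0.531 on the log2 scale, taken over the 3 media together. Their intervals reach from a decrease to an increase against control in every gene, so differences of the size estimated were not detectable here. Depth does not limit these genes, since 1693827 to 5492910 counts per library fell on them, but it limits PPARGC1A.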
